A study of Mus musculus with 4 samples.

Results

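Guanylate-binding proteins (GBPs) are large GTPases of the dynamin superfamily that interferons induce. After IFN-γ they assemble on the vacuoles of intracellular parasites and on the surface of cytosolic bacteria, where they help to break open the vacuole and to bring caspases to bacterial lipopolysaccharide (LPS). In macrophages they are part of cell-autonomous immunity, the defence that an infected cell mounts by itself.

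The 10 GBP genes described here are Gbp2, Gbp2b, Gbp3, Gbp4, Gbp5, Gbp6, Gbp7, Gbp8, Gbp9 and Gbp10, taken by symbol from 18256 gene symbols counted in each library, and all 10 were found. The measurement was RNA-seq of macrophages grown from wild-type (WT) mouse bone marrow for 7 days in 20 ng/ml macrophage colony-stimulating factor (MCSF). The M0 group (2 libraries) stayed in MCSF alone for the last 24 h, and the M1 group (2 libraries) received LPS at 100 ng/ml together with IFN-γ at 20 ng/ml for that time. Whether the M1 medium still held MCSF is not given in the sources used here. Mouse strain, sex and age, and whether libraries came from separate animals or cultures, are not given in the sources used here, so the spread on which p-values rest may be technical. IFN-γ and LPS were given together, and their shares in a change cannot be told apart.

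Totals per library ran from 15921466 to 18987705 counts over genes. Levels are given as CPM, a count divided by the scaled library total and multiplied by 1000000, on which scale 3 counts are 0.144 to 0.185. Libraries with the same label were not copies of each other, since counting noise was exceeded (chi-square per degree of freedom 9.15 for M0, 13.3 for M1). All 10 macrophage markers checked, among them Adgre1, Csf1r and Cd68, had counts, with summed levels of 21386 to 23745 CPM in M0 and 29999 to 30487 CPM in M1. Of 8 listed T and NK cell markers in the files, 6 had counts and Cd3g and Ncr1 had none (21.8 to 22.5 CPM in M0 and 4.80 to 5.47 CPM in M1, summed), and nearly all of the sum was Cd4 (mean 21.4 in M0 and 4.74 in M1). B and plasma cell markers summed to 138 to 150 CPM in M0 and 36.1 to 38.1 CPM in M1, nearly all of it Ighm (mean 139 in M0 and 34.2 in M1). Neutrophil markers summed to 347 to 358 CPM in M0 and 356 to 382 CPM in M1, but 6 of 9 tested were lower (median log2 fold change -2.17), while Csf3r and Camp were higher and Csf3r went from a mean of 108 to 239 CPM. Dendritic cell markers summed to 170 to 191 and 67.3 to 76.1 CPM, mostly Itgax (171 and 63.6), with 4 of 6 tested lower and Xcr1 and Ccr7 higher. Stromal and endothelial markers summed to 696 to 716 and 458 to 517 CPM, mostly Col1a1 and Col1a2, with 4 of 8 lower and 4 higher. These calls are by the edgeR test described below, by which 24.2% of all tested genes were higher and 24.0% lower. Retnlg and Cd209a had no count in M1 and Ccr7 none in M0. Each of these passed the count filter through 1 group alone, so a difference was built into its selection for testing. The part of these other cell types in the GBP results was not tested. In bulk RNA, fewer cells of a type and less RNA per cell cannot be told apart.

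The mouse GBP genes lie in 2 clusters. Gbp5, Gbp7, Gbp3, Gbp2b and Gbp2 stand in that order within bases 142493978 to 142638008 of chromosome 3 (plus strand, GRCm38, the assembly that mm10 names). Gbp8, Gbp9, Gbp4, Gbp10 and Gbp6 lie within bases 105014150 to 105346472 of chromosome 5 (minus strand), together with Gbp11, which the GENCODE annotation classes as a polymorphic pseudogene. The chromosome 5 genes are closer copies of each other: their coding sequences shared 88.9% to 98.4% of aligned bases over 10 pairs. The chromosome 3 genes shared 54.5% to 82.5% over 10 pairs, and pairs from different chromosomes 55.4% to 74.3% over 25 pairs. Gbp2 and Gbp2b were the closest pair on chromosome 3, at 82.5%, followed by Gbp3 and Gbp7, at 78.1%.

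RefSeq (GRCm38.p6) promoter windows, from 250 bases before to 50 after a transcript start, were matched by symbol for 5 of the 10 genes, namely Gbp2, Gbp2b, Gbp3, Gbp5 and Gbp7, with 6 windows because Gbp3 has 2 starts. An interferon-stimulated response element (ISRE) is the DNA element bound by IRF and ISGF3 factors. It was searched on both strands as GAAA and GAAA with any 2 bases between them. A match was found in 5 of the 6 windows, 1 for each of the 5 genes, against 3.44% of all 32851 promoter windows in that table. The stretches around the matches are shown because they let the promoters of strongly and weakly expressed members be read side by side. Capitals mark the matches, which all lie on the strand opposite to transcription and so read as TTTC and TTTC with 2 bases between. Gbp3 holds 2 that overlap each other. The stretches are, in the order of the names, chr3:142620579-142620638, chr3:142559974-142560039, chr3:142496744-142496803, chr3:142530258-142530317 and chr3:142594685-142594744, plus strand.
Gbp2: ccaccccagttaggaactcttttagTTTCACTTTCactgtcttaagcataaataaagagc
Gbp3: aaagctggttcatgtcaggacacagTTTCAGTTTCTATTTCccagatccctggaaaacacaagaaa
Gbp5: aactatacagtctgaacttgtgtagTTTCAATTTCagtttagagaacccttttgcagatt
Gbp7: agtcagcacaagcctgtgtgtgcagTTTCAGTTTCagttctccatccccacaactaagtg
Gbp2b: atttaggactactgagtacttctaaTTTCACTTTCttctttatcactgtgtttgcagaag

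The first matched base lay 59 bases before the RefSeq start in Gbp2, 45 and 39 in the overlapping matches of Gbp3 and 53 in Gbp7. In Gbp5 and Gbp2b the distances were 165 and 137 bases. GENCODE M21 begins Gbp2 at base 142620602, inside the stretch shown, and Gbp5 at base 142493978, before its stretch. Both matches therefore lie after the GENCODE start of their gene, not before it. Gbp2 and Gbp2b carried the same 10 letters, and their M1 levels were the highest and the lowest of the chromosome 3 cluster. The gamma-activated site (GAS), an element of promoters that respond to IFN-γ, was searched as TTCNNNGAA on both strands. It was found in Gbp5 and Gbp7, with 2 matches each, none of them overlapping an ISRE match, against 8.30% of all windows. A match describes letters in a window; whether a factor bound there was not measured.

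**Figure D1:**
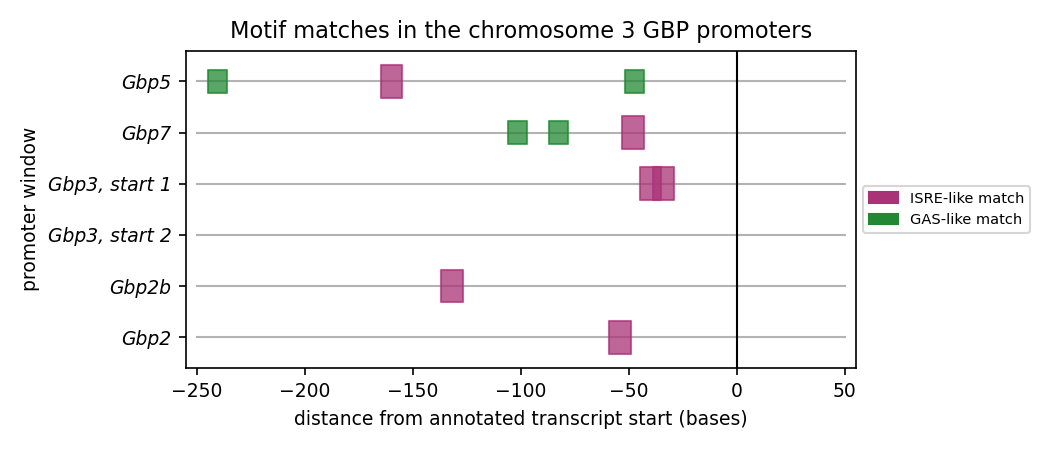
Each line is a RefSeq promoter window of a chromosome 3 GBP gene, from 250 bases before to 50 after the transcript start (x axis, bases), with ISRE-like and GAS-like matches as boxes to scale. ISRE-like matches of Gbp2, Gbp3 (2 overlapping) and Gbp7 begin 39 to 59 bases before the RefSeq start, those of Gbp2b and Gbp5 137 and 165 bases before it. By the GENCODE starts, the matches of Gbp2 and Gbp5 lie after the start.

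The comparison of M1 with M0 asked how stimulation changed the transcriptome. All 10 GBP genes rose in M1 by the edgeR quasi-likelihood test (Benjamini-Hochberg adjusted p below 0.05 over 12966 tested genes), against 24.2% of all tested genes called higher. Both M1 libraries lay above both M0 libraries for each of the 10, which held for 37.0% of tested genes. The members differed widely in size of change, from a log2 fold change of 1.12 for Gbp8 to 8.18 for Gbp4, with Gbp10 not counted in M0 at all. The median over the 10 was 6.87 on the log2 scale, or 6.15 with Gbp10 at its lower bound, and -0.02 over all tested genes. Of the 10, 6 reached the count filter in M0 as well. Gbp2b, Gbp4, Gbp6 and Gbp10 passed it through their M1 libraries alone, so a difference was built into their selection for testing.

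**Figure D2:**
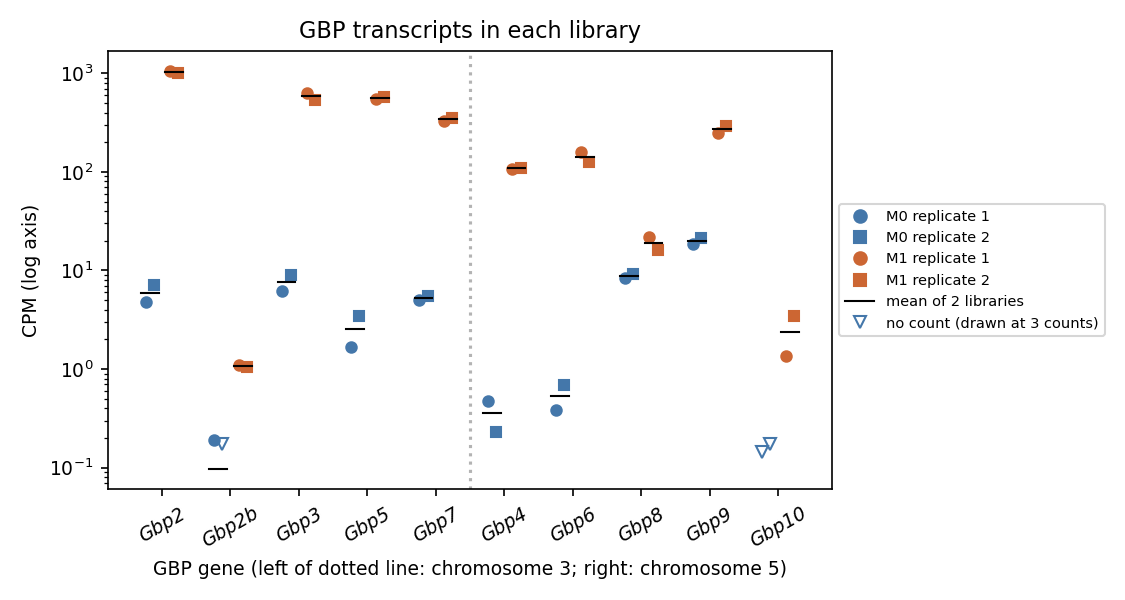
CPM of each GBP gene (log axis) in the 4 libraries, M0 in blue and M1 in orange, circles for replicate 1 and squares for replicate 2, with the mean of each group as a line and open triangles at the level of 3 counts where a library had no count. The M1 points lie above the M0 points for each gene, by the least for Gbp8 (8.83 to 19.2 CPM in the means).

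Gbp2, which coats pathogen vacuoles and carries a lipid anchor at its C-terminus, was the most abundant member in M1. It had 4.84 and 7.07 CPM in M0 replicates 1 and 2 and 1062 and 1016 CPM in M1 replicates 1 and 2. The M1 libraries lay close together and far above both M0 libraries. The mean went from 5.96 ± 1.57 to 1039 ± 32.5 CPM (SD; every mean ± SD below is also over n = 2 libraries), a log2 fold change of 7.46 ± 0.17 (SE; edgeR adjusted p = 1.06e-10). This was the 72nd largest fitted rise of the 12966 tested genes.

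Gbp5, linked to assembly of the NLRP3 inflammasome and also lipid-anchored, started lower than Gbp2. The fitted log2 fold change of Gbp5 was larger, a difference that was not tested. Its levels were 1.68 and 3.48 CPM in M0 and 548 and 571 CPM in M1. The M0 levels rest on 35 and 60 counts, the M1 libraries were close to each other, and the groups did not overlap. The log2 fold change was 7.79 ± 0.21 (edgeR adjusted p = 3.23e-10).

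Gbp3 and Gbp7, neighbours on chromosome 3 that act with Gbp2 against parasite vacuoles, began at similar CPM. Gbp3 had 6.23 and 8.98 CPM in M0 and 628 and 539 CPM in M1, a log2 fold change of 6.27 ± 0.17 (edgeR adjusted p = 3.24e-10). Gbp7 had 4.99 and 5.56 CPM in M0 and 329 and 355 CPM in M1, a log2 fold change of 6.02 ± 0.13 (edgeR adjusted p = 8.64e-11). Neither gene's groups overlapped. Of the transcript sequence of Gbp7, 12.7% of 50-base words also occur in another annotated gene (the most in the pseudogene Gm43802, which lies within Gbp7), and how the authors counted such reads is not given in the sources used here.

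Gbp2b, known before as Gbp1, stood apart on chromosome 3. It had 4 and 0 counts in the M0 libraries and 18 and 17 in the M1 libraries, or 0.192, 0, 1.11 and 1.05 CPM. Both M1 libraries lay above both M0 libraries, at levels far under those of the other chromosome 3 members. The fitted log2 fold change was 3.30 ± 0.99 (edgeR adjusted p = 0.0160), and the ratio of group counts over depth was 10.3 (exact 95% counting interval 3.67 to 39.7). The call was lost without M0 replicate 2 (adjusted p = 0.126, log2 fold change 2.45), without M1 replicate 1 (0.0725, 3.26) and without M1 replicate 2 (0.0578, 3.36). Without M0 replicate 1 no count was left in M0, and the fitted value became 7.17, which is no bound. Of its 50-base words, 1.84% occur in another gene, chiefly Gbp2. Over both M1 libraries Gbp2b had 35 counts and Gbp2 33784. Whether reads of Gbp2 were counted as Gbp2b was not tested.

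On chromosome 5, Gbp9 was the member with the highest resting level. It had 18.4 and 21.5 CPM in M0 and 247 and 291 CPM in M1. The M1 libraries were far above M0, yet the log2 fold change of 3.76 ± 0.13 (edgeR adjusted p = 1.78e-09) was smaller than that of each chromosome 3 member except Gbp2b. The difference between members in fold change was not tested.

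Gbp8 changed least. It had 8.44 and 9.21 CPM in M0 and 22.1 and 16.3 CPM in M1. The groups did not overlap, but the M1 libraries spread by more than the M0 libraries. The log2 fold change was 1.12 ± 0.20 (edgeR adjusted p = 0.000915). The call was lost without M0 replicate 1 (adjusted p = 0.0604, log2 fold change 1.06). Gbp8, Gbp9 and Gbp4 share exon sequence at their common start, 1.77%, 1.16% and 0.814% of their exonic bases, and reads there are ambiguous. A further limit for Gbp8 is that 18.1% of its 50-base words occur in another gene.

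Gbp4 and Gbp6 were close to absent at rest and abundant after stimulation. Gbp4 had 10 and 4 counts in M0 (0.479 and 0.232 CPM) and 107 and 111 CPM in M1. Its log2 fold change was 8.18 ± 0.22 (edgeR adjusted p = 2.68e-10), or 8.83 without M0 replicate 1. Gbp6 had 8 and 12 counts in M0 (0.384 and 0.695 CPM) and 159 and 127 CPM in M1, a log2 fold change of 8.07 ± 0.23 (edgeR adjusted p = 4.42e-10). For both, no M0 library reached 1 CPM and both M1 libraries were above 100 CPM. The ratio of group counts over depth was 296 for Gbp4 (exact 95% counting interval 176 to 542) and 272 for Gbp6 (176 to 446).

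Gbp10, the near-copy of Gbp6, had no count in either M0 library and 22 and 56 counts in the M1 libraries (1.35 and 3.44 CPM). With M0 set at 3 counts over the group it was at least 30.5-fold higher in M1 (edgeR adjusted p = 0.000554). With the M1 libraries taken singly the bound was 17.2 for replicate 1 and 43.8 for replicate 2. Gbp11 likewise had no count in M0 and 51 and 82 counts in M1, at least 52.0-fold higher on the same floor (edgeR adjusted p = 5.55e-05), with bounds of 39.9 and 64.1 for the M1 libraries taken singly. It too passed the count filter through M1 alone, so a difference was built into its selection for testing. Of the 50-base words of Gbp11, 19.2% occur in another gene, the most in Gbp8, and reads there are ambiguous.

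Counts of Gbp6 and Gbp10 are uncertain because reads cannot easily be told apart. Their coding sequences, each 1833 bases long in the GENCODE M21 annotation, differed at 30 bases, and the longest stretch without a difference was 421 bases. In all, 70.7% of the 50-base words of Gbp6 and 84.1% of those of Gbp10 occur in another annotated gene. For both, these include the overlapping gene model Gm43302, which is not a symbol of the count files. The 60 bases of coding sequence where the pair differs most, coding bases 1567 to 1626, are shown with the differing bases in capitals, because reads from such stretches are the ones that can separate the pair.
Gbp6: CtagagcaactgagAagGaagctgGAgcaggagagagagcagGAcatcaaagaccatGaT
Gbp10: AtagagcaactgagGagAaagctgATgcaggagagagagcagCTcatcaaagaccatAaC

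Gbp10 made up 0.846% of the summed Gbp6 and Gbp10 counts in M1 replicate 1 (exact 95% interval 0.531% to 1.28%, counting error only) and 2.65% in M1 replicate 2 (2.01% to 3.43%). The intervals do not overlap, so the M1 libraries differed in this share by more than counting error. In M1 replicate 2, Gbp6 was lower and Gbp10 higher than in M1 replicate 1.

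**Figure D3:**
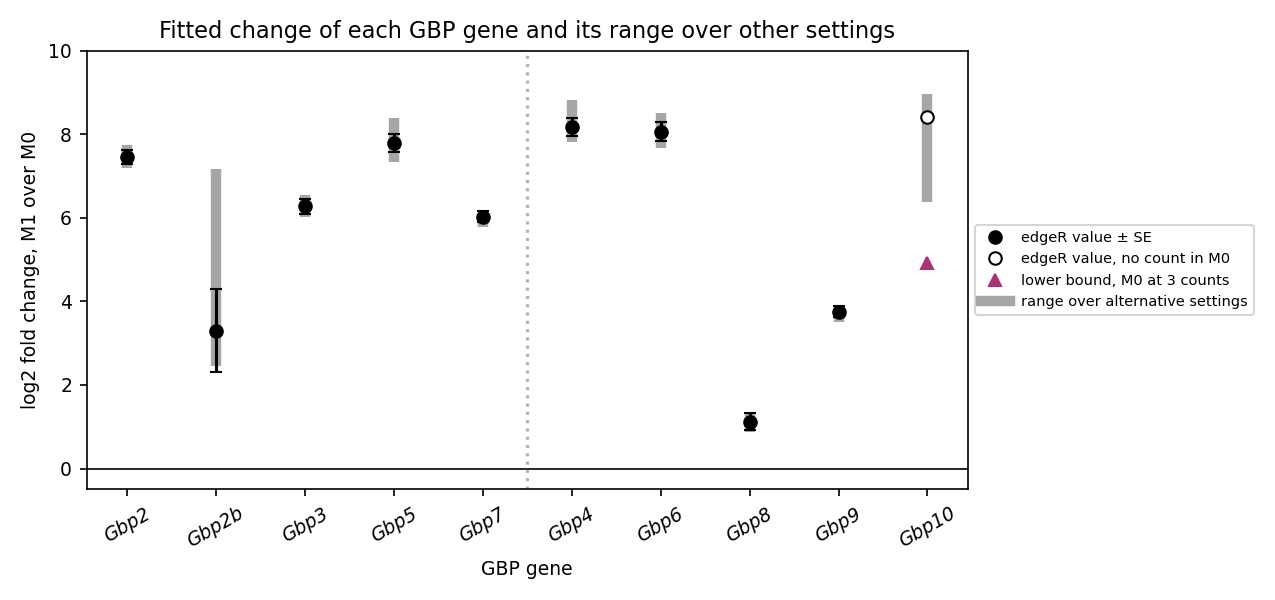
Fitted log2 fold change of M1 over M0 for each GBP gene (points with SE bars from edgeR), with the range over the alternative normalizations, tools, filters and left-out libraries as a grey bar. Gbp10, with no count in M0, has an open point and a triangle at its lower bound of 4.93. The range is widest for Gbp2b, from 2.45 to 7.17, and Gbp8 lies lowest at 1.12.

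Levels were compared between genes as CPM per kb of merged exons (GENCODE M21). The order changed between the groups. In M0 the highest level was that of Gbp9 (3.85 ± 0.43 CPM per kb), followed by Gbp8 (2.56 ± 0.16), Gbp2 (2.37 ± 0.63) and Gbp3 (2.33 ± 0.60). Gbp8 overlapped Gbp2, and Gbp2 overlapped Gbp3, so the order of these 3 is not resolved. Gbp7 (0.939 ± 0.073), Gbp5 (0.388 ± 0.192) and Gbp6 (0.0906 ± 0.0370) came next, each separate from its neighbour, and at the bottom Gbp4 overlapped Gbp2b and Gbp2b overlapped Gbp10.

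In M1 the order began with Gbp2 (413 ± 12.9 CPM per kb), Gbp3 (179 ± 19.4), Gbp5 (84.3 ± 2.52), Gbp7 (60.9 ± 3.32) and Gbp9 (52.0 ± 6.03). Gbp6 (24.0 ± 3.82), Gbp4 (14.5 ± 0.36) and Gbp8 (5.58 ± 1.19) followed. Neighbours in this order did not overlap down to Gbp8, and Gbp10 (0.619 ± 0.382) and Gbp2b (0.381 ± 0.016) overlapped at the bottom. Among 12728 tested genes with an annotated length, Gbp2 moved from rank 8956 by level per kb in M0 to rank 96 in M1, Gbp3 from 8996 to 293 and Gbp9 from 7675 to 1033. Gbp8 moved from 8755 to 6454 and Gbp2b from 12631 to 11307. Taking coding length or the longest transcript as the length left the M1 order as it was. In M0 only Gbp2, Gbp3 and Gbp8 changed places, but which neighbours were separate changed as well. Gbp6 overlapped Gbp4 with either length, Gbp7 overlapped Gbp5 with the longest transcript, and Gbp2 overlapped Gbp7 with coding length. Conversely, with coding length Gbp8 was separate from the next gene, Gbp3, and Gbp4 was separate from Gbp2b.

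The family as a whole went from 951 and 979 counts in the M0 libraries to 50438 and 49274 in the M1 libraries, that is from 0.00501% and 0.00615% of all counts to 0.283% and 0.279%. Its make-up changed along with its size. Gbp9 and Gbp8 held 31.8% and 21.9% of the summed level per kb in M0 replicate 1 and 29.6% and 19.0% in M0 replicate 2. In M1 they held 5.61% and 0.754% in replicate 1 and 6.90% and 0.580% in replicate 2. Gbp2 went the other way, from 17.2% and 20.0% in the M0 libraries to 49.6% and 49.5% in the M1 libraries, and Gbp5 from 2.26% and 3.73% to 9.69% and 10.5%. The chromosome 3 cluster together held 45.1% and 50.3% in M0 and 88.8% and 88.0% in M1. All these shares depend on the length used and were worked out for merged exons only. Per kb of coding length, the M1 means were 588 CPM for Gbp2 and 244 CPM for Gbp5, against 413 and 84.3 with merged exons.

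**Figure D4:**
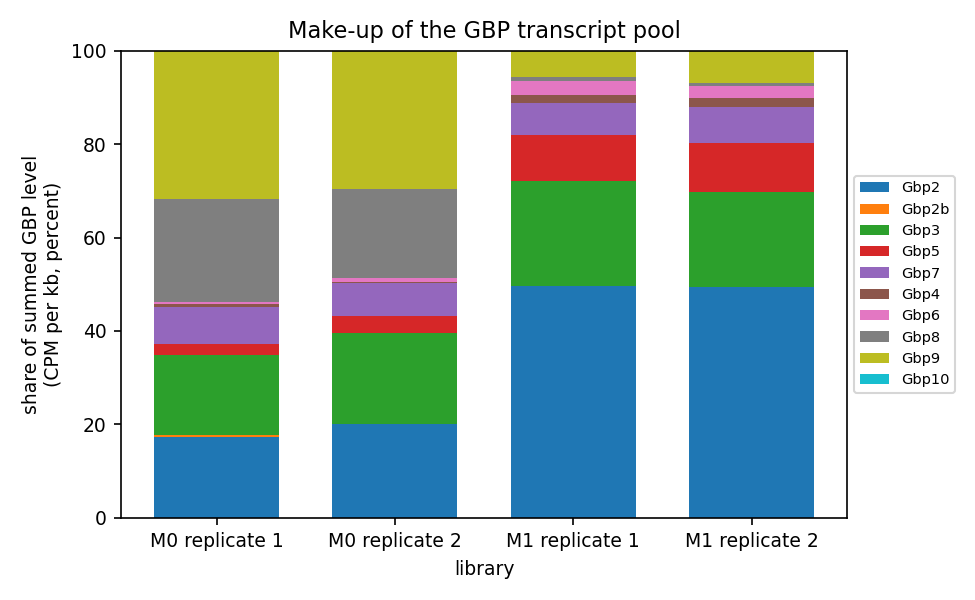
Share of each GBP gene in the summed GBP level (CPM per kb of exon, percent) as stacked bars, 1 bar per library. Gbp9 is the tallest segment of the M0 bars (31.8% and 29.6%) and Gbp2 of the M1 bars (49.6% and 49.5%).

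Ratios between members within a library do not depend on how libraries are scaled, but their size depends on the length used, here merged exons. Gbp2 stood at 0.542 and 0.676 times the level per kb of Gbp9 in M0 and at 8.84 and 7.17 times in M1. Gbp9 stood at 1.45 and 1.55 times Gbp8 in M0 and at 7.45 and 11.9 times in M1. Gbp3 over Gbp7 was 2.15 and 2.78 in M0 and 3.28 and 2.61 in M1, where the groups overlapped. Gbp2 over Gbp3 was 1.01 and 1.02 in M0 and 2.19 and 2.45 in M1. With 2 libraries against 2 an exact permutation test cannot reach 0.05, so these ratios are given as values without a test.

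Genes that flank the clusters served as a comparison by position. The rule took 5 protein-coding genes on each side of each cluster, 20 in all; 16 were in the files and 15 were tested. Of these 3 rose, 5 fell and 7 did not pass, with a median log2 fold change of -0.34, against 24.2% higher and 24.0% lower over all tested genes. The rule set no limit on distance. The largest rise was that of Lmo4, a LIM-domain transcription regulator, from 55.9 ± 4.47 to 472 ± 53.2 CPM (3.08, edgeR adjusted p = 3.54e-09). Lmo4 begins at base 144188530 of chromosome 3, far beyond the end of that cluster at base 142638008. Lrrc8c, a subunit of volume-regulated anion channels, rose from 33.6 ± 0.74 to 168 ± 15.2 CPM (2.33, edgeR adjusted p = 2.36e-08). Lrrc8b, which lies between Lrrc8c and the chromosome 5 cluster, fell from 35.6 ± 1.59 to 23.0 ± 1.03 CPM (-0.63, edgeR adjusted p = 0.00284). On the other side of that cluster, the gene nearest to Gbp8, Abcg3, fell from 9.14 ± 0.52 to 1.32 ± 0.13 CPM (-2.78, edgeR adjusted p = 2.36e-05). Kyat3, next to Gbp2, did not pass (means of 4.61 ± 0.28 and 3.29 ± 0.39 CPM, edgeR adjusted p = 0.237). The calls of Hs2st1 and Lrrc8b were lost without M0 replicate 1 (adjusted p = 0.060 and 0.0641), that of Hs2st1 also without M0 replicate 2 (0.0560), and that of Lrrc8d without M0 replicate 2 (0.0646). Zfp326 (-0.34, adjusted p = 0.0532) was called lower with library totals (0.00286), upper-quartile factors (0.0170), limma-voom (0.0499) and the stricter filter (0.0476), and Spp1 (-0.18, 0.225) with library totals (0.00626).

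Interferon-gamma binds a receptor of IFNGR1 and IFNGR2 chains, which activates the kinases JAK1 and JAK2 and, through them, transcription factors that induce IRF1 and other genes. Of 16 tested genes of this receptor and its JAK-STAT pathway, 11 rose, 3 fell and 2 did not pass, with a median log2 fold change of 1.07; over all tested genes, 24.2% were called higher and 24.0% lower. Jak2 rose from 62.5 ± 0.78 to 558 ± 25.6 CPM (3.16, edgeR adjusted p = 9.01e-10). Irf1 rose less, from 40.1 ± 2.32 to 104 ± 5.09 CPM (1.37, edgeR adjusted p = 1.79e-06). The receptor chains moved apart: Ifngr1 fell from 214 ± 7.53 to 93.2 ± 3.04 CPM (-1.20, edgeR adjusted p = 1.78e-06) and Ifngr2 rose from 143 ± 16.7 to 295 ± 0.12 CPM (1.05, edgeR adjusted p = 1.10e-05). Irf8, a partner of IRF1 at interferon response elements, fell from 161 ± 5.96 to 84.3 ± 1.84 CPM (-0.93, edgeR adjusted p = 1.59e-05). Socs1, which shuts off this pathway, rose from 0.703 ± 0.317 to 26.5 ± 1.14 CPM (5.25, edgeR adjusted p = 5.08e-08), and passed the count filter through M1 alone.

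The other arm, the LPS receptor and the type I interferon receptor, had 9 genes higher, 1 lower and 2 not passed of 12 tested (median 0.81). Over all tested genes, 24.2% were called higher and 24.0% lower. Irf7, which amplifies interferon production, rose from 16.6 ± 1.48 to 1529 ± 36.2 CPM (6.53, edgeR adjusted p = 3.91e-11). Tlr4, the LPS receptor gene itself, fell from 161 ± 5.84 to 71.2 ± 1.41 CPM (-1.18, edgeR adjusted p = 2.50e-06).

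The immunity-related GTPases work beside GBPs on pathogen vacuoles. Of 12 tested genes in that list, which includes Gvin1, 11 rose and 1 fell, with a median of 4.38. Among the 11, Tgtp1 and Gm4841 had 3 counts and 1 count over both M0 libraries. They passed the count filter through M1 alone, so a difference was built into their selection for testing. Over all tested genes, 24.2% were called higher and 24.0% lower. Iigp1 rose from 1.24 ± 0.05 to 120 ± 4.97 CPM (6.59, edgeR adjusted p = 1.75e-10), whereas Irgq fell from 34.2 ± 5.82 to 18.8 ± 2.71 CPM (-0.87, edgeR adjusted p = 0.00156; 0.0770 without M0 replicate 1). Among dynamin-like relatives outside these families, 4 rose, 2 fell and 5 did not pass of 11, beside the same 24.2% and 24.0%. Fewer of these relatives were called with any 1 library left out. With library totals 2 were higher and 4 lower, beside 2026 higher and 4776 lower of all 12966 tested genes. The antiviral genes Mx1 and Mx2 rose from 9.40 ± 3.33 to 847 ± 37.8 CPM (6.51, edgeR adjusted p = 6.00e-10) and from 3.63 ± 0.93 to 103 ± 6.57 CPM (4.84, edgeR adjusted p = 1.99e-09). The call of Mfn1, a mitochondrial fusion GTPase that was lower (-0.34, edgeR adjusted p = 0.0402), was lost without each of the 4 libraries in turn (adjusted p = 0.0876 to 0.163), with DESeq2 (0.0880), with no filter (0.0596) and with the replicate block (0.0882).

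GBPs that end in a CaaX box are prenylated by a farnesyltransferase or a related prenyltransferase before they reach membranes. Of 8 tested genes of prenylation and CaaX processing, 2 were called higher, none lower, and 6 did not pass, a share near the 24.2% of all tested genes called higher. Mean levels in M0 and M1 were 12.9 ± 0.91 and 13.2 ± 1.57 CPM for the farnesyltransferase gene Fntb, and 26.8 ± 5.21 and 30.7 ± 8.51 CPM for the related Pggt1b (edgeR adjusted p = 0.906 and 0.456). The 2 calls, Rce1 (0.44, edgeR adjusted p = 0.0425) and Zmpste24 (0.32, edgeR adjusted p = 0.0219), were small. That of Rce1 was lost without each of the 4 libraries in turn (0.0590 to 0.251) and that of Zmpste24 without M0 replicate 1 (0.148), M0 replicate 2 (0.159) or M1 replicate 2 (0.0859). Both were lost with upper-quartile factors or library totals, that of Rce1 also with DESeq2 (0.0655) and that of Zmpste24 with the replicate block (0.0601).

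Conjugation of ATG8 proteins to lipid, done in part by ATG5 and ATG16L1, guides GBPs to vacuoles. In the list of this machinery and of the galectins and ubiquitin ligases that mark damaged vacuoles, 20 genes were tested. Of these 7 rose, 6 fell and 7 did not pass (median 0.18), against 24.2% higher and 24.0% lower over all tested genes. With library totals 4 were higher and 7 lower, beside 2026 higher and 4776 lower of all 12966 tested genes. The numbers called also changed with any 1 library left out. Atg5 had 83.6 ± 2.78 CPM in M0 and 93.6 ± 1.82 CPM in M1, Atg16l1 55.6 ± 4.09 and 62.8 ± 2.76 CPM (edgeR adjusted p = 0.216 and 0.233). Gabarapl2, an ATG8 protein, had 14.3 ± 1.02 and 19.1 ± 4.71 CPM (edgeR adjusted p = 0.109), and was called higher without M1 replicate 2 (adjusted p = 0.0164). The galectin genes split: Lgals9 rose from 55.6 ± 6.06 to 629 ± 7.83 CPM (3.50, edgeR adjusted p = 9.01e-10) and Lgals3 fell from 1333 ± 170 to 151 ± 18.9 CPM (-3.14, edgeR adjusted p = 5.76e-09). The ubiquitin ligase gene Rnf213 rose from 336 ± 37.8 to 2025 ± 424 CPM (2.59, edgeR adjusted p = 8.02e-08).

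Downstream of GBPs stand the inflammasomes, which activate caspases and the pore-forming protein gasdermin D. Of 17 tested genes, 13 rose, 1 fell and 3 did not pass (median 1.80), against 24.2% higher and 24.0% lower over all tested genes. Casp4, the mouse sensor of cytosolic LPS also called caspase-11, rose from 18.0 ± 3.49 to 115 ± 10.9 CPM (2.68, edgeR adjusted p = 7.12e-08). Casp1 rose from 76.0 ± 4.99 to 288 ± 33.9 CPM (1.92, edgeR adjusted p = 1.25e-07) and Gsdmd from 77.7 ± 4.11 to 271 ± 10.4 CPM (1.80, edgeR adjusted p = 7.11e-08). Aim2, the cytosolic DNA sensor that acts after GBPs lyse bacteria, did not pass, with means of 54.5 ± 1.41 and 66.0 ± 1.77 CPM (0.28, edgeR adjusted p = 0.0565). The 1 lower gene, Gsdme (-0.65, edgeR adjusted p = 0.0121), lost its call without M0 replicate 1, M0 replicate 2 or M1 replicate 1 (adjusted p = 0.136, 0.0976 and 0.0754). The pathway lists were drawn up with earlier results of these data known and are described, not tested.

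**Figure D5:**
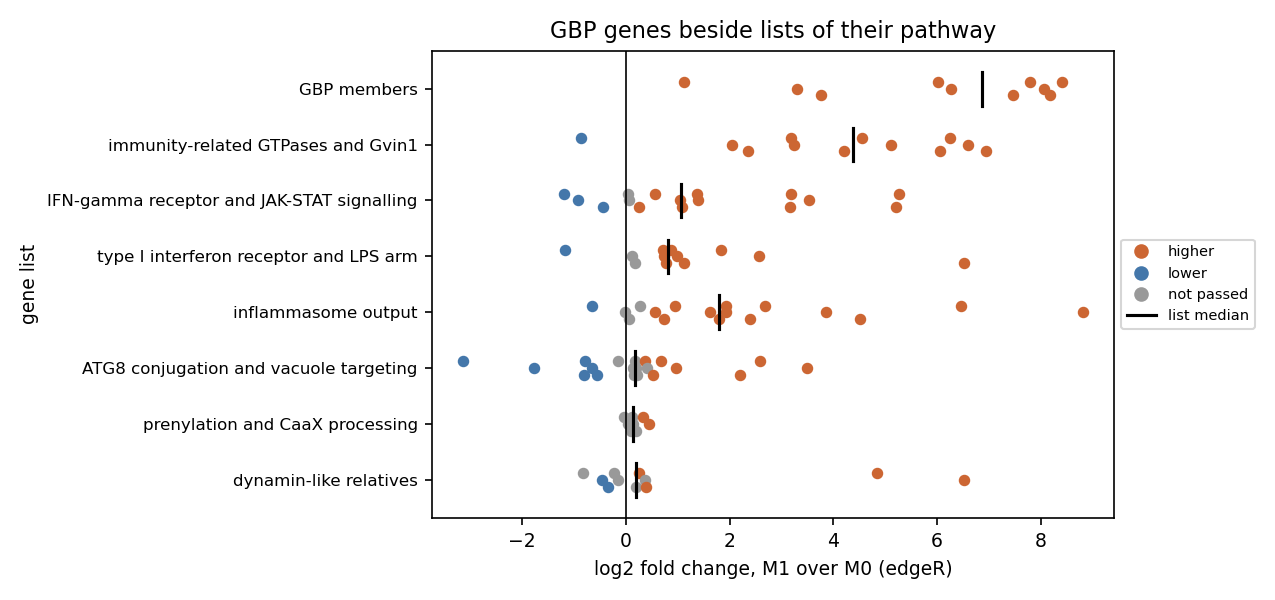
Log2 fold change of M1 over M0 (edgeR) for every tested gene of the GBP family and of 7 pathway lists, 1 point per gene, orange where called higher, blue where called lower and grey where the test was not passed, with the list median as a black line. GBP points reach from 1.12 to 8.41, the last being Gbp10, whose fitted value is no bound; the prenylation points cluster near 0.

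By profile over the 4 libraries (log2 of CPM plus 0.1, centred on each gene's mean), the 5 genes nearest to the median GBP profile were Oasl1, Il1rn, Mmp13, Zbp1 and Ifit1, at Euclidean distances of 0.101, 0.182, 0.233, 0.339 and 0.344. Their fitted log2 fold changes ran from 6.13 for Mmp13 to 6.47 for Zbp1.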

How the data were processed

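The authors deposited raw counts of reads per gene symbol for each library, and the submitters' processing notes name featureCounts, Subread 2.0.1 and the build mm10. Annotation, strand setting and treatment of reads that map to several genes are not given in the sources used here. RNA was depleted of ribosomal RNA per the labels' protocols.

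Low counts were filtered with edgeR's filterByExpr (the equivalent of 10 counts in at least 2 libraries, and 15 in total). The remaining genes were tested by the quasi-likelihood test of edgeR 4.0.16 with group as the only term and TMM scaling, in R 4.3.3. SE is the unshrunken coefficient divided by the root of F. CPM uses library totals times TMM factors. Of the symbols, 97.8% matched GENCODE M21, which gave lengths and transcripts; coding sequences were aligned with mafft 7.526, and shared words were counted over all annotated transcripts. Scripts were tested on simulated data. Named genes were the 10 members, fixed pathway genes, up to 4 called genes of each list with the largest change and up to 2 opposite ones, flanking genes and the nearest profiles; not every such gene is printed. Members and lists were chosen with earlier results of these data known. Alternatives were other scalings, tools, filters, the replicate block and each library left out.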

Additional observations from a re-analysis of the deposited data

How the results depend on the processing

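Over all genes, 3140 were higher and 3108 lower in M1. Scaling by library totals gave 2026 higher and 4776 lower, shifted the median log2 fold change by -0.25 and lowered the higher share of calls from 50.3% to 29.8%; upper-quartile factors shifted it by -0.10. Leaving out 1 library gave 1691 to 2965 higher and 1463 to 2854 lower, with 1691 and 1463 without M0 replicate 1 and 1832 and 1549 without M0 replicate 2; these fits take the spread from fewer libraries, and the lone library is assumed to vary like the others. All 10 GBP genes were called higher under the other scalings, DESeq2, limma-voom and no filter, and 9 under the stricter filter, which dropped Gbp2b, and without each library in turn. Same-numbered replicates did not deviate together (correlation -0.08), and nothing in the labels pairs them; with the replicate block 10 GBP genes, 2957 higher and 2975 lower genes were called. No GBP gene changed direction. Among genes not past the test, signs turned with library totals for Atg16l1 (-0.077), Atg5 (-0.090), Fntb (-0.22), Pggt1b (-0.059), Pkn2 (-0.22) and Zfp951 (-0.25). With upper-quartile factors they turned for Fntb (-0.071), Pkn2 (-0.072) and Zfp951 (-0.10), and with the stricter filter for Zfp951 (-0.0035). Leaving out 1 library gave -0.096 to 0.16 for Fntb, -0.11 to 0.45 for Pggt1b, -0.065 to 0.13 for Pkn2 and -0.20 to 0.24 for Zfp951. The cause was not tested. Depth limits Gbp2b, Gbp4, Gbp6 and Gbp10, whose M0 libraries held 0 to 12 counts.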
